A study of Mus musculus with 8 samples.

Results

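The antioxidant genes of the Nrf2, glutathione and thioredoxin systems described here, 40 in number, were followed in 8 libraries of mouse bone marrow cells. They comprise 2 Nrf2 regulators, 3 heme breakdown enzymes, Nqo1 and Osgin1, 6 genes of glutathione synthesis and recycling and 5 of the thioredoxin system. The others are 6 peroxiredoxins, 3 glutathione peroxidases, Sod1, Sod2 and catalase, 5 glutathione transferases, and 5 enzymes of NADPH supply and the pentose phosphate pathway. All 40 were found among the 24346 gene symbols with a value in every library. They were chosen by function, with results of the same libraries already known, the low level of Nqo1 in LSK cells with red blood cells (RBCs) among them. Values with and without RBCs are therefore a description of these libraries and are given with errors but without p-values. For them the words rose, fell and met the test mark a threshold defined below and are not independent evidence.

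The cells were wild-type and came from bone marrow. HSCs (hematopoietic stem cells) were sorted as Lin- Sca-1+ c-Kit+ CD48- CD150+, and LSK cells as Lin- Sca-1+ c-Kit+, a gate that takes in HSCs together with other immature progenitors. Each population was cultured for 1 day in medium with stem cell factor and thrombopoietin, either alone or with RBCs from C57BL/6 blood that had been passed through a leukocyte filter and irradiated, and CD45-positive cells were then sorted after lysis of the RBCs. Each of the 4 groups had 2 libraries, and neither the age of the donor mice nor a separate animal or culture for each library is given in the labels, so the errors measure the spread between these libraries, which may be technical.

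Expression is given as FPKM, sequenced fragments corrected for the length of the transcript and the size of the library, which sets genes of different length on 1 scale. Comparisons used log2(FPKM + 1), a scale that understates the change of genes with low FPKM, and limma over 12003 genes whose FPKM reached 1 in 2 or more libraries. A gene is said to have risen, fallen or differed when its Benjamini-Hochberg adjusted p over all 12003 genes was under 0.05, and the share of all tested genes that met the same rule is given beside the counts as the background. An exact permutation of 2 libraries against 2 goes no lower than p = 0.333 (two-sided), so the tests lean on the spread shared across genes. Of the 40 genes, 39 were tested, and each of them was above an FPKM of 3 in every library. Slc7a11, which encodes the cystine importer of system xc-, was not tested, with FPKM values between 0.427 and 0.977.

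The sum of FPKM in a library ranged from 680942 to 752107, relative depth ranged from 0.886 to 1.13 of the first LSK library without RBCs, and absolute depth is unknown. Markers of the sorted cells were detected (11 of 11), with Cd48 and Flt3 higher and Slamf1, the gene for CD150, lower in LSK cells than in HSCs. In HSCs with RBCs, Cd48 (log2 fold change -1.08), Procr (-0.52) and Kit (-0.37) fell and Cd34 (0.54) and Csf1r (1.32) rose. Alas2 of the RBC genes rose there too (1.43, with FPKM of at most 2.28), and Fcer1a of the mast cell or basophil genes fell (-1.99). In LSK cells with RBCs, Pf4 of the platelet genes fell (-2.06), from FPKM of 130 and 37.8 to 13.5 and 19.1. Ppbp (-0.89), Gp9 (-0.060), Itga2b (0.023) and Gp1bb (0.051) of the same list did not meet the test there. Of 8 neutrophil genes found, S100a8 and S100a9 were higher in HSCs with RBCs and Retnlg and Mmp8 in LSK cells with RBCs, and their summed FPKM was 8.54 to 10.6 in HSCs without RBCs, 45.9 to 252 with RBCs, 128 to 218 in LSK cells without RBCs and 359 to 561 with RBCs. The 7 monocyte or macrophage genes summed to 439 to 473, 374 to 379, 304 to 395 and 540 to 651 in the same order, with Adgre1 and Mrc1 near 0. The 10 RBC genes found summed to 283 to 339, 300.0 to 309, 112 to 179 and 121 to 185, with Slc4a1 at or near 0, whereas Hba-a1 was at most 1.53 without RBCs and between 32.9 and 116 with them. Hbb-b2, which made up most of the sum without RBCs, was at 279 and 335 against 120.3 and 158 in HSCs and at 109 and 173 against 128 and 54.1 in LSK cells. Hbb-b1 was at 1.93 and 1.94 against 65.1 and 31.0 in HSCs and at 0.907 and 2.12 against 0.0438 and 0.0145 in LSK cells, and reads may be split between such near-identical globin genes. The 5 platelet genes summed to 188 to 225, 180 to 197, 102 to 197 and 75.8 to 86.4, and the 5 mast cell or basophil genes to 5.50 to 6.94, 1.37 to 1.44, 27.9 to 45.0 and 36.0 to 98.3. T cell genes (4) and B cell genes (3) summed to less than 2 in every library. The part of these cell types in the results was not tested, and in bulk RNA fewer cells of a type and less RNA per cell cannot be told apart.

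Nrf2, encoded by Nfe2l2, is a transcription factor that is held in the cytoplasm and passed to degradation by Keap1 until oxidants or electrophiles modify Keap1. It then enters the nucleus, pairs with small Maf proteins and binds antioxidant response elements near genes for quinone and heme metabolism, glutathione synthesis, thioredoxin reduction and NADPH supply. Glutathione and thioredoxin pass reducing equivalents from NADPH to peroxidases and peroxiredoxins, and in the bone marrow a low level of reactive oxygen species is associated with quiescent stem cells.

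The core of the antioxidant response element, TGACNNNGC, was looked for on both strands of the RefSeq promoters of GRCm38.p6, from 250 bases before to 50 bases after each gene start. A promoter was given for 35 of the 40 genes, and 11 of these (31.4%) held the core, against 3781 of 27025 genes (14.0%) over windows of the same length. Those without an entry were Gclc, Gsr, Gsta4, Hmox1 and Prdx6. The sequences below show the core in capitals for the 9 genes in which it lay before or across the start, with 10 bases on each side, on the strand of the gene. In Me1 and Nfe2l2 the core reads as given above, and in the others the capitals are its reverse complement.
Nfe2l2, chr2:75704885-75704913, minus strand, core 240 bases before the start: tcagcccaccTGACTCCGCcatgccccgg
Blvra, chr2:127070598-127070626, plus strand, 49 bases before the start: cacgggaattGCTCGGTCAaggctccgcc
Gclm, chr3:122245413-122245441, plus strand, 134 bases before the start: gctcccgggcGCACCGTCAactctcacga
Txnrd1, chr10:82859104-82859132, plus strand, 92 bases before the start: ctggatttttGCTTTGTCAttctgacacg
Prdx1, chr4:116685456-116685484, plus strand, 133 bases before the start: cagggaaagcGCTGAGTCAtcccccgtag
Sod1, chr16:90220696-90220724, plus strand, 56 bases before the start: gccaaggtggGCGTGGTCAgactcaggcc
G6pdx, chrX:74428919-74428947, minus strand, 57 bases before the start: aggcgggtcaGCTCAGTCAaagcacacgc
Me1, chr9:86695902-86695930, minus strand, across the start: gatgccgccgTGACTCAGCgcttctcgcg
Mgst1, chr6:138140461-138140489, plus strand, 56 bases before the start: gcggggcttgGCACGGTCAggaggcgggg

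In Pgd and Srxn1 the core lay after the start. In Txnrd1, G6pdx, Me1 and Mgst1 the bases shown lie inside the gene as placed by GENCODE M21 (GRCm38). Txnrd1 runs there from 82833951 to 82897712, so the start used for it is an internal one. Of the 16 genes that met the test with RBCs in at least 1 population (below), Gclm, Txnrd1 and Mgst1 held the core, 10 had no match in this window (Blvrb, Nqo1, Osgin1, Gpx1, Gpx3, Cat, Tkt, Taldo1, Gstm1 and Mgst2) and 3 had no entry. The 250 bases upstream of Gclm, on chr3:122245307-122245556 of the plus strand, show where its core lies in a GC-rich promoter.
Gclm promoter: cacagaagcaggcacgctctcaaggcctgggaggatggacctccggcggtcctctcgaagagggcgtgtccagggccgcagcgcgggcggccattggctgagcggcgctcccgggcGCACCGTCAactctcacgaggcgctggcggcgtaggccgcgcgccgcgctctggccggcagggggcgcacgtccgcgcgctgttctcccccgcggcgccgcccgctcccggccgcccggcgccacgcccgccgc
A match describes these letters and does not show that Nrf2 bound there.

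The levels of the genes spanned a wide range. Gpx1, the cytosolic glutathione peroxidase, had the highest FPKM, between 2108 and 3075, followed by mean level by the peroxide-removing Prdx1, Gpx4 and Prdx2, by Txn1 and by Prdx6, whereas Me1 and Mgst2 lay near the low end. Txn1, which encodes the cytosolic thioredoxin, was between 388 and 569, and Txn2, its mitochondrial counterpart, between 229 and 252. Gss, Txnrd2, Prdx2, Prdx5, Sod1, G6pdx and Gsto1 overlap a gene on the opposite strand, so part of their reads may belong to it.

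**Figure D1:**
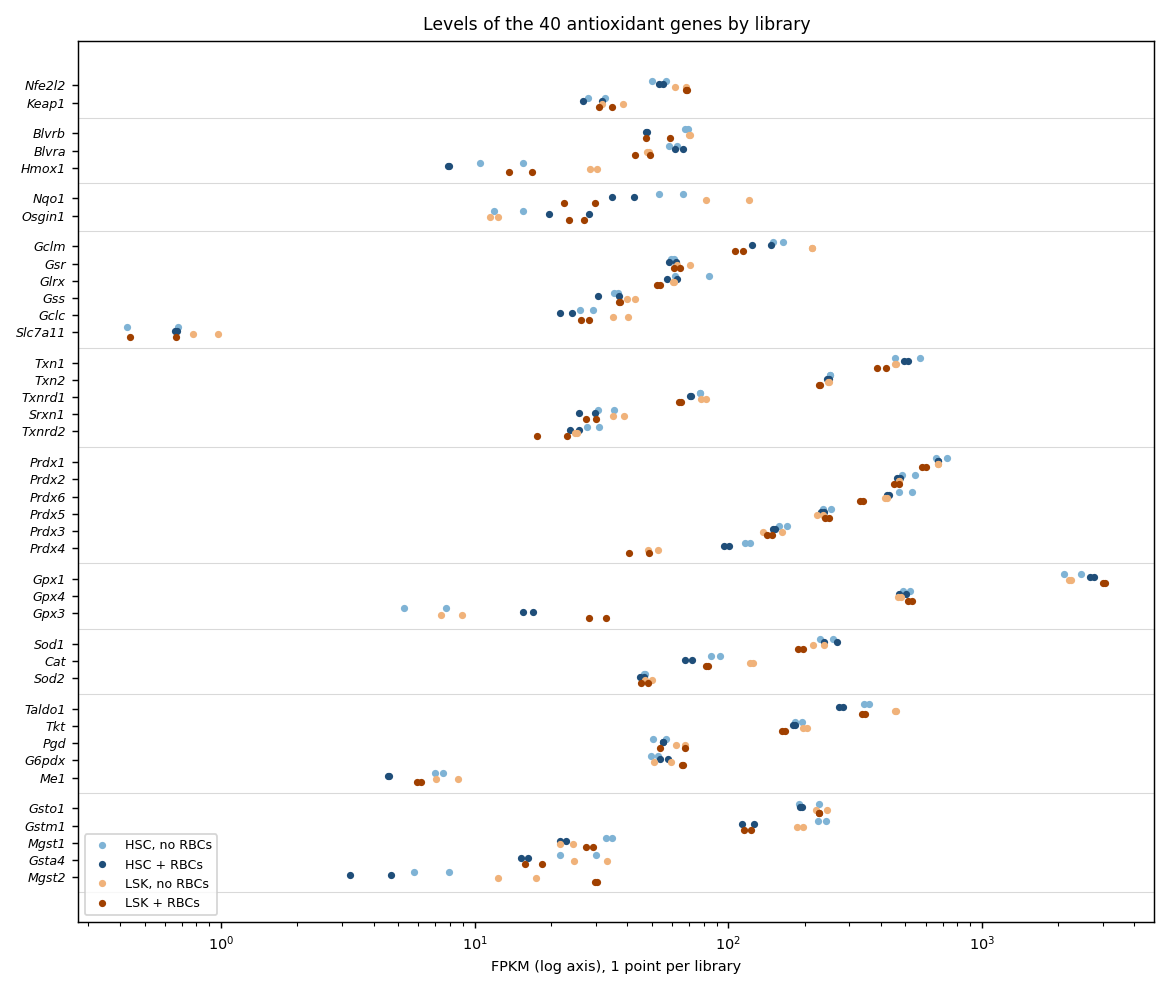
FPKM of the 40 antioxidant genes on a log axis, with 1 point per library (light blue, HSCs without RBCs; dark blue, HSCs with RBCs; light orange, LSK cells without RBCs; dark orange, LSK cells with RBCs) and grey lines between functional groups. Gpx1 lies highest at 2108 to 3075, Slc7a11 is the only gene below 1, and the points of Nqo1, Hmox1, Gpx3 and Mgst2 are spread most widely.

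With RBCs, the genes were mostly lower in both populations, and more of them met the test in LSK cells. In HSCs, 5 of 39 fell (background 0.958% of all tested genes) and 1 rose (background 1.57%). In LSK cells, 10 fell (background 1.13%) and 4 rose (background 2.32%). At least 2-fold changes were rarer, with Gpx3 in HSCs (background 0.775%) and Nqo1, Osgin1 and Gpx3 in LSK cells (background 1.01%). The median log2 fold change of the 39 genes was -0.12 in HSCs, against -0.0062 over all tested genes, and -0.18 in LSK cells, against -0.0095. In each population 30 of 39 genes lay below 0. Because the genes were chosen with such changes known, nothing is read from these shares.

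The test counts depended on single libraries. In HSCs, the 6 genes became 2 without the first library with RBCs and 3 without the second. In LSK cells, the 14 genes became 5 without the first library without RBCs or the first with RBCs, and 6 without the second of either group. In these fits the group left with 1 library borrows its spread from the others. Gpx3 and Gstm1 in HSCs, and Nqo1, Gclm, Cat, Gstm1 and Gpx3 in LSK cells, met the test in all 8 fits that each left out 1 library. The calls of Blvrb, Cat, Taldo1 and Mgst1 in HSCs, and of Osgin1, Gpx1, Mgst2, Hmox1, Gclc, Txnrd1, Prdx6, Tkt and Taldo1 in LSK cells, were each lost in 1 or more of these fits with the sign unchanged.

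The position of single libraries was also compared across both populations. Both libraries with RBCs lay below both without in 21 genes in HSCs (background 21.8%) and 21 in LSK cells (background 26.4%), and above both in 4 (background 19.9%) and 8 (background 24.2%). In both populations at once, 15 genes were lower (background 6.97%): Hmox1, Blvrb, Nqo1, Gclc, Gclm, Txn2, Txnrd1, Txnrd2, Srxn1, Prdx6, Cat, Taldo1, Me1, Gsta4 and Gstm1. Higher in both were Osgin1, Gpx1, Gpx3 and G6pdx (4 genes, background 7.61%). The sign of the RBC effect was shared by 31 of 39 genes (background 54.6%). Here too the genes were chosen with such changes known, so nothing is read from these shares.

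**Figure D2:**
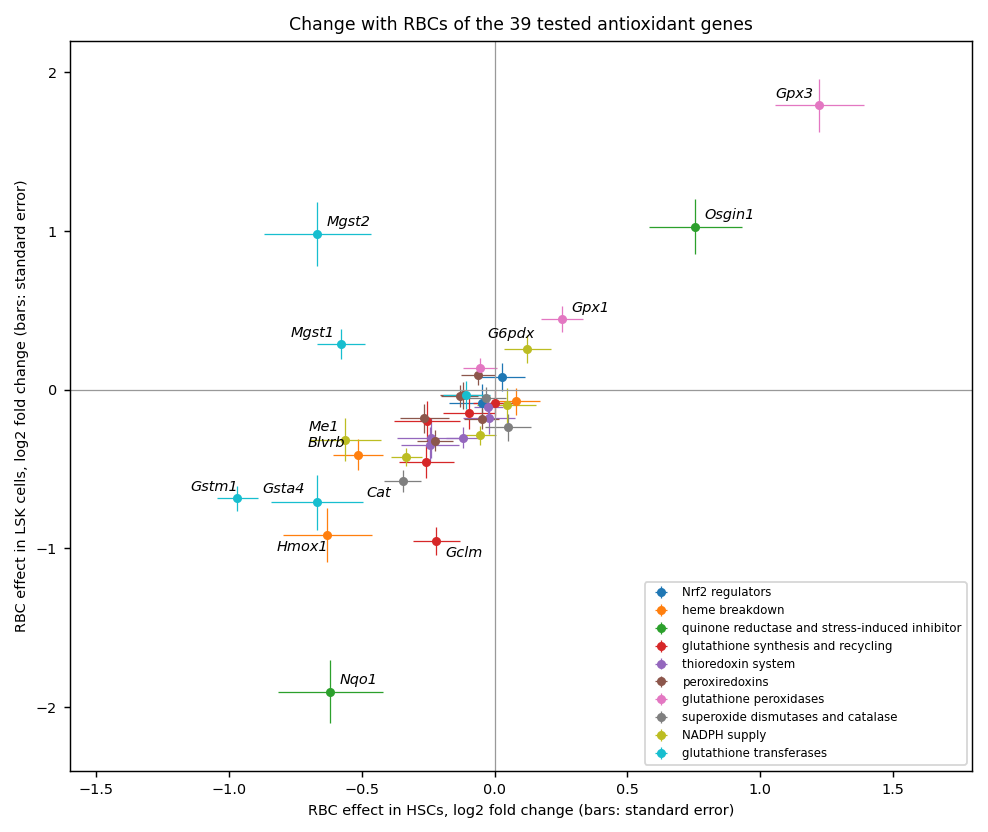
Log2 fold change with RBCs in HSCs (horizontal axis) and in LSK cells (vertical axis) for the 39 tested genes, with 1 point per gene, bars of 1 standard error and colors for functional groups. Most points lie below 0 on both axes, Nqo1 is lowest at -1.90 in LSK cells, Gpx3 is highest on both axes at 1.22 and 1.79, and Mgst1 and Mgst2 lie on opposite sides of 0 in the 2 populations.

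The 2 regulators differed little with RBCs. For Nfe2l2, FPKM was 49.9 and 57.1 in HSCs without RBCs, 55.5 and 53.5 with RBCs, and in LSK cells 68.3 and 61.4 without and 68.2 and 68.8 with them. The groups with and without RBCs overlapped in both populations, with log2 fold changes of 0.030 (standard error 0.0863) in HSCs and 0.080 in LSK cells (95% intervals -0.17 to 0.22 and -0.11 to 0.27). Keap1 overlapped as well, at 32.5 and 28.0 against 26.9 and 31.8 in HSCs and 31.9 and 38.3 against 31.0 and 34.8 in LSK cells.

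Among the heme breakdown enzymes, Hmox1 and Blvrb were lower with RBCs. Hmox1, the inducible heme oxygenase that opens the heme ring, had an FPKM in HSCs of 15.5 and 10.5 without RBCs and 7.92 and 7.84 with them. In LSK cells it was 28.6 and 30.3 without RBCs and 13.6 and 16.8 with them. Its groups did not overlap in either population, and it fell in LSK cells by 0.92 on the log2 scale (standard error 0.168), while the HSC value of -0.63 did not meet the test. The LSK call was lost without any 1 of the 4 LSK libraries, with values of -1.06 to -0.77.

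Blvrb encodes biliverdin reductase B, which also reduces flavins. Its FPKM was 67.5 and 69.7 in HSCs without RBCs and 47.5 and 47.9 with them, a fall of 0.51 on the log2 scale (standard error 0.0953). LSK cells gave 71.0 and 70.0 against 47.6 and 58.7, a log2 fold change of -0.41 that did not meet the test. Blvra, which reduces biliverdin to bilirubin, overlapped between the conditions in both populations, at 58.4 and 62.6 against 61.7 and 66.5 in HSCs and at 48.7 and 47.8 against 49.1 and 42.7 in LSK cells.

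The largest fall of the set was that of Nqo1, an NAD(P)H-dependent quinone reductase and standard readout of Nrf2 activity. Nqo1 lies on chromosome 8 of GRCm38 (GENCODE M21), from 107388225 to 107403206 on the minus strand, with no overlapping gene. FPKM in LSK cells was 121 and 81.7 without RBCs and 22.4 and 29.8 with them, a mean 3.88-fold lower and a log2 fold change of -1.90 (standard error 0.199). Fits that each left out 1 library gave -2.18 to -1.62. In HSCs the values were 53.5 and 66.4 against 42.6 and 34.7, also without overlap, and the log2 fold change of -0.62 did not meet the test.

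Osgin1, an oxidative stress-induced growth inhibitor that is also an Nrf2 target, went the other way. Its FPKM in LSK cells was 11.5 and 12.3 without RBCs and 27.1 and 23.7 with them, a log2 fold change of 1.03 (standard error 0.175). The call was lost in the 4 fits that left out 1 of these LSK libraries, with 0.93 to 1.12. HSCs had 15.5 and 11.9 against 28.4 and 19.7, a log2 fold change of 0.76 that did not meet the test. Nqo1 and Osgin1 thus moved in opposite directions in the same libraries.

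Of the genes for glutathione synthesis, both subunits of glutamate-cysteine ligase, the rate-limiting step, fell in LSK cells. Gclm, the modifier subunit, had an FPKM in LSK cells of 214 and 215 without RBCs and 114 and 106 with them. This was a mean 1.94-fold lower, on the log2 scale -0.95 (standard error 0.0882), and lay between -1.0 and -0.90 when each library was left out. In HSCs, 151 and 165 against 147 and 125 gave -0.22, which did not meet the test.

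Gclc, the catalytic subunit, was in LSK cells at 40.2 and 35.2 without RBCs and 28.1 and 26.3 with them, a fall of 0.45 on the log2 scale (standard error 0.104). This call lay close to the threshold and was lost in 6 of the 8 fits without 1 library, with -0.55 to -0.36. HSCs gave 29.3 and 26.1 against 24.3 and 21.8, without overlap and with a log2 fold change of -0.26. Gss (glutathione synthetase), Gsr (glutathione reductase) and Glrx (a glutaredoxin) had log2 fold changes from -0.25 to 0.00077 in HSCs and from -0.20 to -0.082 in LSK cells and did not meet the test. The importer gene Slc7a11 was at 0.427 and 0.676 against 0.657 and 0.670 in HSCs and at 0.775 and 0.977 against 0.438 and 0.664 in LSK cells.

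In the thioredoxin system, 1 of the 5 genes met the test, in LSK cells. Txnrd1, the cytosolic thioredoxin reductase, had an FPKM in LSK cells of 82.0 and 78.1 without RBCs and 65.4 and 64.1 with them, a fall of 0.30 on the log2 scale (standard error 0.0641). HSCs gave 77.2 in both libraries without RBCs and 70.8 and 71.5 with them, a log2 fold change of -0.12. Txn1 was at 455 and 569 against 509 and 494 in HSCs and at 456 and 458 against 419.7 and 388 in LSK cells. The members Txn1, Txn2, Txnrd2 and Srxn1 (sulfiredoxin, which repairs overoxidized peroxiredoxins), ranged from -0.24 to -0.020 in HSCs and from -0.35 to -0.11 in LSK cells, none past the test. All 5 genes were lower in both LSK libraries with RBCs than in both without, as were 26.4% of all tested genes. Txnrd1 overlaps Eid3 on the same strand, so their reads may be shared.

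Peroxiredoxins reduce peroxides, and most of them, though not Prdx6, do so at the expense of thioredoxin. Prdx6, a 1-cysteine peroxiredoxin, fell in LSK cells from 424 and 414 to 339 and 332, a log2 fold change of -0.32 (standard error 0.0670), and gave -0.22 in HSCs, where 473 and 529 stood against 432 and 424. Prdx1, the most abundant of the 6, was at 672 and 670 against 603 and 580 in LSK cells and at 660 and 732 against 675 and 669 in HSCs, neither past the test. The other 4 had log2 fold changes from -0.27 to -0.062 in HSCs and from -0.18 to 0.095 in LSK cells, with Prdx4 at -0.27 in HSCs.

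Of the 3 glutathione peroxidases, Gpx3 rose in HSCs and Gpx1 and Gpx3 rose in LSK cells with RBCs. Their summed FPKM was 2602 and 2982 in HSCs without RBCs, 3277 and 3153 with RBCs, and in LSK cells 2704 and 2727 without and 3613 and 3578 with them. Most of this sum was Gpx1, which rose in LSK cells from 2216 and 2253 to 3075 and 3015, a log2 fold change of 0.45 (standard error 0.0802). In HSCs, Gpx1 was at 2108 and 2455 against 2761 and 2666, a log2 fold change of 0.25 that did not meet the test.

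Gpx3, the secreted glutathione peroxidase of plasma, rose in both populations. It lies on chromosome 11 from 54902453 to 54910377 on the plus strand, with no overlapping gene. Its FPKM was 5.29 and 7.71 in HSCs without RBCs and 15.6 and 17.0 with them, a mean 2.51-fold higher and a log2 fold change of 1.22 (standard error 0.167). LSK cells had 8.92 and 7.39 without RBCs and 28.3 and 33.1 with them, a mean 3.76-fold higher and a log2 fold change of 1.79. Without 1 library at a time, the range was 0.99 to 1.46 in HSCs and 1.67 to 1.91 in LSK cells. Gpx4, which protects membrane lipids, gave -0.053 and 0.14 and did not meet the test.

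Catalase, which breaks down hydrogen peroxide without a reductant, fell in both populations. Cat was at 85.3 and 92.6 in HSCs without RBCs and at 72.1 and 67.4 with them, a log2 fold change of -0.35 (standard error 0.0700), which met the test in only 1 of the 8 fits without a library (-0.41 to -0.29). In LSK cells it was at 122 and 125 without RBCs and 83.1 and 81.9 with them, a log2 fold change of -0.58. Sod1, the cytosolic superoxide dismutase, was at 229.6 and 260.1 against 239.7 and 268 in HSCs and at 238 and 216 against 197 and 188 in LSK cells. Sod1 and its mitochondrial counterpart Sod2 did not meet the test, at 0.051 and -0.031 in HSCs and -0.24 and -0.053 in LSK cells.

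NADPH is supplied in part by the dehydrogenases of the pentose phosphate pathway, encoded by G6pdx and Pgd. Taldo1 and Tkt act in the non-oxidative part of this pathway, which makes no NADPH. Of the 5 genes, Taldo1 fell in both populations and Tkt in LSK cells, while G6pdx, Pgd and Me1 did not meet the test. G6pdx, the first and rate-limiting enzyme, was at 49.4 and 53.1 against 54.0 and 57.9 in HSCs and at 50.8 and 59.6 against 65.5 and 66.3 in LSK cells, higher with RBCs without overlap but not past the test (0.12 and 0.26). Taldo1, the transaldolase, fell in HSCs from 343 and 359 to 283 and 274, a log2 fold change of -0.33 (standard error 0.0586), and in LSK cells from 456 and 461 to 336 and 347, a log2 fold change of -0.42. Tkt, the transketolase, fell in LSK cells from 205 and 198 to 163 and 167, a log2 fold change of -0.29 (standard error 0.0610), and gave -0.056 in HSCs.

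Pgd, the second dehydrogenase of the pathway, overlapped between conditions in both populations. Me1, malic enzyme, was at 6.99 and 7.47 against 4.54 and 4.59 in HSCs and at 7.02 and 8.57 against 5.92 and 6.17 in LSK cells. The groups did not overlap, but its log2 fold changes of -0.56 and -0.31 did not meet the test.

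Of the 5 glutathione transferases, which couple glutathione to electrophiles, Gstm1 fell in both populations, Mgst1 fell in HSCs and Mgst2 rose in LSK cells. Gstm1, on chromosome 3 from 108012255 to 108017973 on the minus strand, was at 226 and 244 in HSCs without RBCs and at 126 and 113 with them. This was a mean 1.96-fold lower and -0.97 on the log2 scale (standard error 0.0779). In LSK cells it was at 198 and 186 against 123 and 115, a log2 fold change of -0.68. The gene has close paralogs between which reads could be split. Gsta4 was lower without overlap in both populations, at 21.8 and 30.1 against 16.2 and 15.3 in HSCs and 24.6 and 33.1 against 15.8 and 18.5 in LSK cells, with log2 fold changes of -0.67 and -0.71 that did not meet the test. Gsto1, the most abundant of the 5, overlapped in both, at 191 and 228 against 196 and 192 in HSCs and 246 and 222 against 227 and 229 in LSK cells.

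The microsomal transferases Mgst1 and Mgst2 had RBC effects of opposite sign in the 2 populations. Mgst1 was at 32.9 and 34.8 in HSCs without RBCs and 22.9 and 21.7 with them, a fall of 0.58 on the log2 scale (standard error 0.0918). In LSK cells it was at 21.7 and 24.4 without RBCs and 27.4 and 29.2 with them, a log2 fold change of 0.29 that did not meet the test. Both comparisons were free of overlap.

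Mgst2, on chromosome 3 from 51660360 to 51682677 on the plus strand, was at 5.77 and 7.92 in HSCs without RBCs and 4.66 and 3.23 with them, a log2 fold change of -0.67 (standard error 0.202) that did not meet the test. It rose in LSK cells from 12.4 and 17.5 to 29.8 and 30.4, a mean 2.02-fold higher and a log2 fold change of 0.98. That call was lost without the first LSK library without RBCs (0.75) and without either LSK library with RBCs. Csf1r, Ccr2 and Ctss of the monocyte or macrophage list rose in the same LSK libraries, and their part in the result was not tested.

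**Figure D3:**
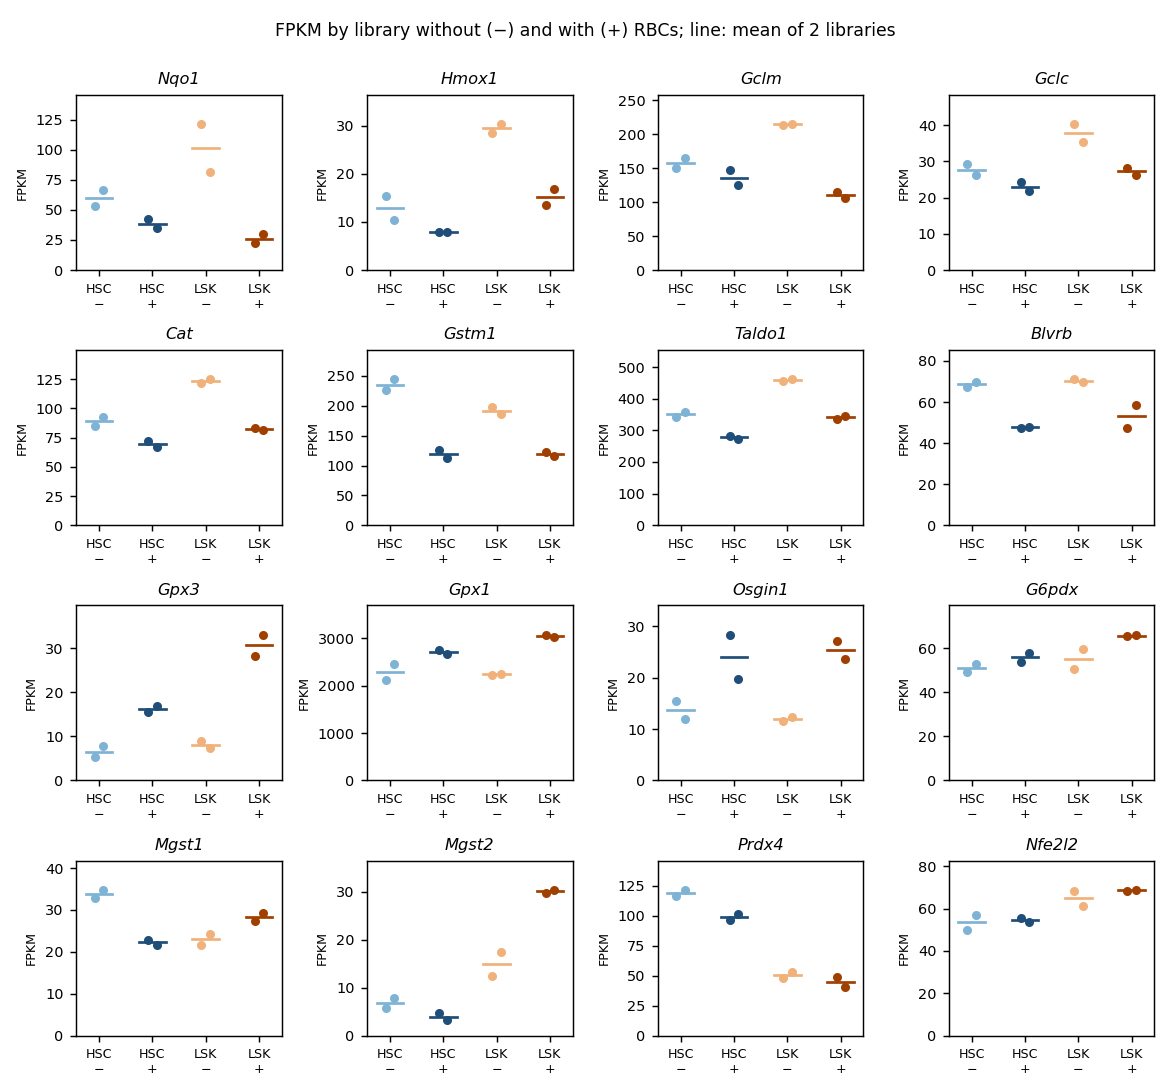
FPKM of 16 of the genes in each library, with 1 panel per gene and its own linear axis from 0, and a line at the mean of the 2 libraries of a group (HSCs in blue, LSK cells in orange, − without and + with RBCs). Nqo1 falls from 121 and 81.7 to 22.4 and 29.8 in LSK cells, Gpx3 is higher with RBCs in both populations, Mgst1 and Mgst2 differ in direction between them, and Nfe2l2 overlaps between the conditions.

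The difference between the RBC effects in HSCs and LSK cells, taken as the effect in HSCs minus that in LSK cells, met the test for 0 of the 39 genes (background 0.133%, and 0.108% with at least a 2-fold difference), although 9 had an unadjusted limma p under 0.05, as did 12.5% of all tested genes. The 4 differences farthest from 0 were those of Mgst2, at -1.65 (95% interval -2.30 to -1.01), Nqo1, at 1.28 (0.65 to 1.92), Mgst1, at -0.87 (-1.16 to -0.57), and Gclm, at 0.73 (0.45 to 1.02). These genes were picked as the extremes of the set, and their intervals are for single genes, without adjustment for the number of genes. By the adjusted test, a different response of the populations was not shown for any of the genes, and neither was an equal one.

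LSK cells and HSCs were also compared with each other. Without RBCs, 7 of the 39 genes (17.9%) were higher in LSK cells (background 6.93%) and 5 (12.8%) lower (background 7.29%). Of these, 3 (7.69% of the 39) differed by at least 2-fold (background 2.66%). With RBCs, 7 (17.9%) were higher (background 11.9%) and 6 (15.4%) lower (background 12.5%). Of these, 2 (5.13% of the 39) differed by at least 2-fold (background 3.61%). These comparisons use the same libraries as those with and without RBCs. The genes were chosen with results of these libraries known, so nothing is read from these shares. The p-values below describe these libraries and are not independent tests. The count without RBCs fell from 12 to 6 without the first LSK library and to 7 without the second. With RBCs it fell from 13 to 8 and 7 without the first and second HSC library, and to 3 without the second LSK library.

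Prdx4 and Mgst2 differed by at least 2-fold in both conditions. Prdx4, the peroxiredoxin of the endoplasmic reticulum, lies on chromosome X from 155323918 to 155340754 on the minus strand, and was at 116 and 121 in HSCs but 48.2 and 52.8 in LSK cells without RBCs. With RBCs it was at 96.4 and 101 in HSCs and 48.5 and 40.7 in LSK cells. It was a mean 2.35-fold lower in LSK cells without RBCs (log2 fold change -1.22, limma adjusted p = 7.4e-05) and 2.21-fold lower with them (-1.13, limma adjusted p = 8.2e-05). For Mgst2, LSK cells were 2.18-fold higher without RBCs (log2 fold change 1.02, limma adjusted p = 0.011) and 7.63-fold higher with them (2.67, limma adjusted p = 5.5e-05), the latter 2.46 to 2.88 when each library was left out. The difference without RBCs did not meet the test without the second LSK library (0.78) or the first HSC library.

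Several stress-response genes were higher in LSK cells cultured without RBCs. On the log2 scale, Hmox1 differed by 1.15 (limma adjusted p = 0.0025), Nqo1 by 0.73 (limma adjusted p = 0.040), Gclm by 0.44 (limma adjusted p = 0.011) and Gclc by 0.43 (limma adjusted p = 0.025). Cat (0.47, limma adjusted p = 0.0027) and Taldo1 (0.38, limma adjusted p = 0.0032) were higher too. Of these, Hmox1, Cat and Taldo1 met the test in all 8 fits without 1 library, and Nqo1 lost the call in 3, with 0.45 to 1.01.

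With RBCs the order of some of these genes was not the same. Nqo1 was at 42.6 and 34.7 in HSCs and 22.4 and 29.8 in LSK cells, a log2 fold change of -0.56 that did not meet the test (limma adjusted p = 0.072), and Gclm was lower in LSK cells by 0.30 (limma adjusted p = 0.038). Hmox1 (0.86, limma adjusted p = 0.0065), Cat (0.24, limma adjusted p = 0.034) and Taldo1 (0.29, limma adjusted p = 0.0071) were higher in LSK cells, as were Gpx3 (0.87, limma adjusted p = 0.0060) and Nfe2l2 (0.33, limma adjusted p = 0.024). Without RBCs, Nfe2l2 gave 0.28 (limma adjusted p = 0.065) and Gpx3 0.30 (limma adjusted p = 0.28).

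Other genes were higher in HSCs. Blvra was lower in LSK cells without RBCs (-0.32, limma adjusted p = 0.039) and with them (-0.47, limma adjusted p = 0.0047), and Prdx6 likewise (-0.25, limma adjusted p = 0.035, and -0.35, limma adjusted p = 0.0058). Without RBCs these calls were weak: that of Prdx6 was lost in 7 of the 8 fits without 1 library (-0.33 to -0.17) and that of Blvra in 6 (-0.37 to -0.27). Gstm1 was lower in LSK cells without RBCs (-0.29, limma adjusted p = 0.038, lost in 5 of the 8 fits, with -0.35 to -0.23) but could not be told from HSCs with them (-0.0064, 95% interval -0.18 to 0.17). Mgst1 was lower in LSK cells without RBCs (-0.54, limma adjusted p = 0.0055) and higher with them (0.33, limma adjusted p = 0.029). The calls of Prdx6 and Gstm1 without RBCs and of Txn1 and Gclm with RBCs were also lost after quantile normalization. Sod1 (-0.39, limma adjusted p = 0.011) and Txn1 (-0.31, limma adjusted p = 0.043) were lower in LSK cells with RBCs. Prdx4 and Blvra met the test with RBCs in all 8 fits without 1 library, as did Mgst2, whereas the other 10 genes each lost it in at least 1, Hmox1 (0.72) and Gpx3 (0.76) without the second LSK library.

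**Figure D4:**
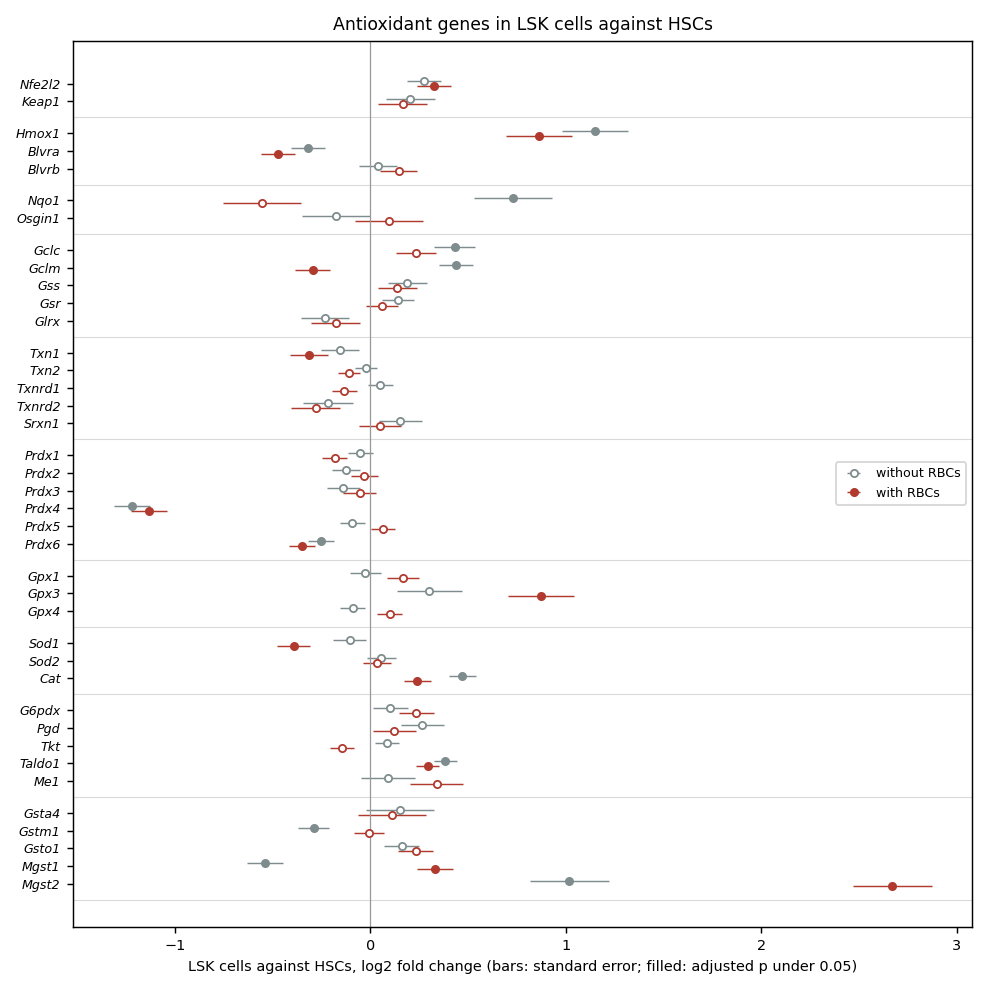
Log2 fold change of the 39 genes in LSK cells against HSCs, without RBCs (grey) and with RBCs (red), with bars of 1 standard error and filled points where the limma adjusted p was under 0.05. Prdx4 lies at -1.22 and -1.13, Mgst2 at 1.02 and 2.67, and Nqo1, Gclm and Mgst1 lie on different sides of 0 in the 2 conditions.

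A further 84 genes of the same pathways were looked at by list, 73 of which were tested. These lists were also drawn up with results of these libraries known, so nothing is read from the shares below. In HSCs with RBCs, 2 rose (Ggt5 and Mthfd2, background 1.57%) and 3 fell (Ftl1, Slc48a1 and Msrb3, background 0.958%). In LSK cells, Ggt5 and Txnip, the thioredoxin-binding inhibitor, rose (background 2.32%), and 5 fell (background 1.13%), all of them among the 13 tested genes listed as further Nrf2 targets.

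These 5 include iron and heme handling genes. Ftl1, the ferritin light chain, was at 6539 and 7129 in HSCs without RBCs, 5263 and 4866 with them, and in LSK cells at 8360 and 8713 without and 5961 and 5979 with them, log2 fold changes of -0.43 and -0.52. Slc48a1, a heme transporter, was at 167 and 154 against 112 and 115 in HSCs and at 196 and 194 against 109 and 106 in LSK cells, log2 fold changes of -0.50 and -0.85. Fth1, the ferritin heavy chain, fell by 0.40 in LSK cells on the log2 scale, Esd by 0.56 and Cbr3, a carbonyl reductase, by 1.27. Ferritin genes have processed pseudogenes that could take up reads.

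The 11 tested Nrf2 partners, repressors and degradation genes did not meet the test with RBCs in either population, with median log2 fold changes of -0.039 and -0.011. Mafg, Mafk and Sqstm1 were higher in LSK cells than in HSCs in both conditions, with log2 fold changes of 0.61, 0.62 and 0.56 without RBCs (limma adjusted p = 0.011, 0.038 and 0.0038). Of the 73 tested, 8 were higher (background 6.93%) and 4 lower (background 7.29%) in LSK cells without RBCs, and 13 were higher (background 11.9%) and 9 lower (background 12.5%) with them. Idh1, a cytosolic source of NADPH, gave 0.63 without RBCs (limma adjusted p = 0.0015) and 1.09 with them (limma adjusted p = 5.7e-05).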

How the data were processed

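RNA of 8 libraries was profiled with full-length cDNA (SMART-Seq HT) and Nextera XT libraries. The authors deposited 1 FPKM value per gene symbol and library, normalized for transcript length and mapped fragments, with replicates not pooled. The submitters' processing notes name TopHat2 2.1.1, Bowtie2 2.2.8, SAMtools 0.1.18, Cuffdiff 2.2.1 and mm10; the annotation is not given in the sources used here. Full-length cDNA keeps no strand, so reads of overlapping genes cannot be told apart.

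Groups came from the sample titles. From the deposited FPKM, log2(FPKM + 1) was fitted in limma 3.58.1 (R 4.3.3) with a mean-variance trend, 4 group means and no replicate block, for 12003 genes whose FPKM reached 1 in 2 or more libraries. There were 5 contrasts, Benjamini-Hochberg adjustment over all genes, and calls at an adjusted p under 0.05, with at least 2-fold change where stated. The procedure was tested on simulated data. The labels do not say whether replicate numbers pair libraries. Deviations from group means correlated between -0.067 and 0.095, which does not settle it.

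The members and the gene lists were chosen with earlier results of these data known. Named with full values were members with an adjusted p under 0.05 in at least 1 contrast, Nfe2l2, Keap1, Hmox1, Nqo1, Gclc and Gclm, and the most abundant member of each functional group; values of Me1, Gsta4, G6pdx and Slc7a11 were added after their values were seen. Positions came from GENCODE M21 (GRCm38) and promoters from RefSeq. Alternatives covered the pseudocount, filter, scaling, libraries in the fit, replicate block, trend, the thresholds, the omission of each library, and Student's test on 2 groups.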

Additional observations from a re-analysis of the deposited data

Results flagged for a closer look

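Mgst1 and Mgst2 were picked out because their libraries moved in opposite directions with RBCs in HSCs and in LSK cells, without overlap in either. The difference of the effects, HSCs minus LSK cells, was -0.87 for Mgst1 and -1.65 for Mgst2 on the log2 scale. Since the genes were picked for these opposite moves, the differences are a description, and they were not tested on other libraries. Opposite moves of this kind were seen in 2 of the 39 genes and in 936 of the 12003 tested genes (7.80%).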

How the results depend on the processing

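With 2 libraries per group and no absolute depth, small changes cannot be resolved. Both the counts of genes past the test and the medians depended on the settings. Of the 45 values of single genes past the adjusted p, 0 changed sign under the settings run; other values of single genes were not rerun. Numbers past the adjusted p are given for HSCs with RBCs, LSK cells with RBCs, LSK cells against HSCs without RBCs and the same with RBCs, with 6, 14, 12 and 13 as reported. Without the filter they were 2, 7, 6 and 11, and without the trend 3, 5, 7 and 8. Only the groups compared gave 4, 12, 7 and 17. The replicate block, for which the labels name no pairing, gave 6, 11, 8 and 10. Leaving out the fold threshold turned the calls of at least 2-fold change from 1, 3, 3 and 2 into 6, 14, 12 and 13, a pseudocount of 5 gave 0 in HSCs with RBCs and 1 for LSK cells against HSCs without RBCs, and no filter gave 0 in HSCs with RBCs. For the difference of the RBC effects (0 as reported), a pseudocount of 5 gave 1, quantile normalization 2, and the Student test at an unadjusted p 8, of which 2 by at least 2-fold; the Student test gave 7 for LSK cells against HSCs without RBCs. Scaling moved the split of higher and lower genes: quantile normalization gave 2 and 5 in HSCs with RBCs (1 and 5 as reported), 8 and 3 for LSK cells against HSCs without RBCs (7 and 5) and 11 and 4 with RBCs (7 and 6), where equal medians gave 4 and 6. The median of the genes in LSK cells with RBCs was -0.13 after quantile normalization and -0.14 when the sum left out RBC genes, which also gave 0.10 for LSK cells against HSCs without RBCs. Leaving out 1 library at a time gave 2 to 7, 5 to 15, 6 to 12 and 3 to 16 past the adjusted p, 0 for the difference, 1 to 2, 2 to 3, 2 to 3 and 2 to 3 by at least 2-fold, and medians of -0.16 to -0.067, -0.21 to -0.15, -0.011 to 0.057 and 0.0051 to 0.090, with -0.018 to 0.071 for the difference. The cause of these changes was not tested.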
